A study of Meleagris gallopavo with 18 samples.

Results

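The 4 loci described here encode parts of the axonemal dynein arms and were chosen by name from the 56037 rows of the gene table: DNAH5 (MSTRG.31009), DNAI1 (MSTRG.51736), ARMC4 (MSTRG.41022) and DNAH7 (MSTRG.43174). The transcript table held 22 transcripts of these loci among its 103847 rows. RNA-Seq libraries came from the epididymis (E), the ductus deferens (DD) and the testis (T) of the same 6 male turkeys (Meleagris gallopavo; birds 2, 11, 12, 14, 15 and 16), so each tissue had 6 libraries. The males were 38 weeks of age, with photostimulation since week 26 (14 h light, 10 h dark per day), and no treated or mutant group was part of the design. The study compared the tissues in pairs and asked which RNAs may be linked to sperm motility. Its tables of genes that differed between these same libraries supplied the 4 names, so the direction of the 4 genes is not independent evidence.

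Dynein arms are the motor complexes that drive the beating of motile cilia and sperm flagella by sliding neighbouring microtubule doublets of the axoneme. The outer arm sets mainly the beat frequency and the inner arm the waveform. DNAH5 is an outer arm heavy chain, DNAI1 an outer arm intermediate chain, ARMC4 a component of the docking complex that fixes outer arms on the doublets, and DNAH7 an inner arm heavy chain. In humans, loss of DNAH5 or DNAI1 causes primary ciliary dyskinesia, and the sperm flagellum uses partly other outer arm heavy chains than airway cilia. In the male tract of birds, developing spermatids of the testis build flagella, and ciliated cells line the efferent ductules.

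Total counts per library ranged from 64143451 to 118625345, at which 3 counts corresponded to 0.0187 to 0.0676 CPM, the unit of counts scaled by library total and TMM factor. The epididymis of bird 12 stood apart, with Spearman correlations of 0.72 to 0.75 with the other 5 epididymides over 19131 genes, and it held the fewest genes with counts (17596). The testis of bird 11 had correlations of 0.71 to 0.84 with the other testes, the lowest of which was with the testis of bird 12. Where leaving out the epididymis of bird 12, or the whole of either bird, changed a call of the 4 loci, the value without it is given. The testis of bird 11 was not left out alone. In these bulk tissues, fewer cells of a type and less RNA per cell cannot be told apart.

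The outer arm heavy chain DNAH5 was high in the epididymis and near 0 in both other tissues. It ranged from 86.6 CPM in bird 16 through a median of 128 CPM to 407 CPM in bird 12 in the epididymis. It had no ductus deferens count in birds 2, 12 and 15, and the other birds reached 0.0342, 0.124 and 0.492 CPM, from 48 counts in all, of which 34 lay in bird 11. In the testis it ranged from 0.0730 CPM in bird 11 through a median of 1.14 CPM to 2.61 CPM in bird 15. Every epididymis therefore lay above every testis and every ductus deferens, whereas the ranges of the ductus deferens and the testis overlapped. Of all genes tested, 11.6% lay wholly higher and 24.6% wholly lower in the epididymis than in the testis.

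The outer arm intermediate chain DNAI1 followed another pattern, with similar ranges in the epididymis and the testis. It ranged from 13.2 CPM in bird 12 through a median of 37.6 CPM to 46.1 CPM in bird 14 in the epididymis. Its ductus deferens values lay between 1.12 and 2.64 CPM, with a median of 1.90 CPM and counts in all 6 libraries. In the testis it ranged from 34.7 CPM in bird 14 through a median of 43.7 CPM to 70.1 CPM in bird 12. DNAI1 was the only one of the 4 loci with counts in every ductus deferens, and its 6 libraries there lay below those of both other tissues.

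The docking component ARMC4 ranged from 29.7 CPM in bird 12 through a median of 83.9 CPM to 104 CPM in bird 14 in the epididymis. ARMC4 had no ductus deferens count in bird 14 and otherwise reached at most 0.647 CPM, with a median of 0.200 CPM. In the testis it ranged from 9.48 CPM in bird 11 through a median of 50.5 CPM to 114 CPM in bird 12. The ranges of the epididymis and the testis overlapped, and the lowest epididymis and the lowest testis were the 2 libraries that stood apart.

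The inner arm heavy chain DNAH7 had its higher levels in the testis. It ranged from 3.49 CPM in bird 12 through a median of 32.7 CPM to 41.8 CPM in bird 15 in the epididymis. DNAH7 had no ductus deferens count in birds 2 and 12 and reached at most 1.03 CPM, with a median of 0.425 CPM. In the testis it ranged from 26.4 CPM in bird 11 through a median of 139 CPM to 182 CPM in bird 14. With all birds the ranges of the epididymis and the testis overlapped, and bird 11 was higher in the epididymis (41.2 CPM) than in the testis. Leaving out bird 11, which was picked here after seeing the data, every testis lay above every epididymis. With all birds kept, 24.6% of all genes tested lay wholly lower in the epididymis than in the testis. The share without bird 11 is not given.

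**Figure D1:**
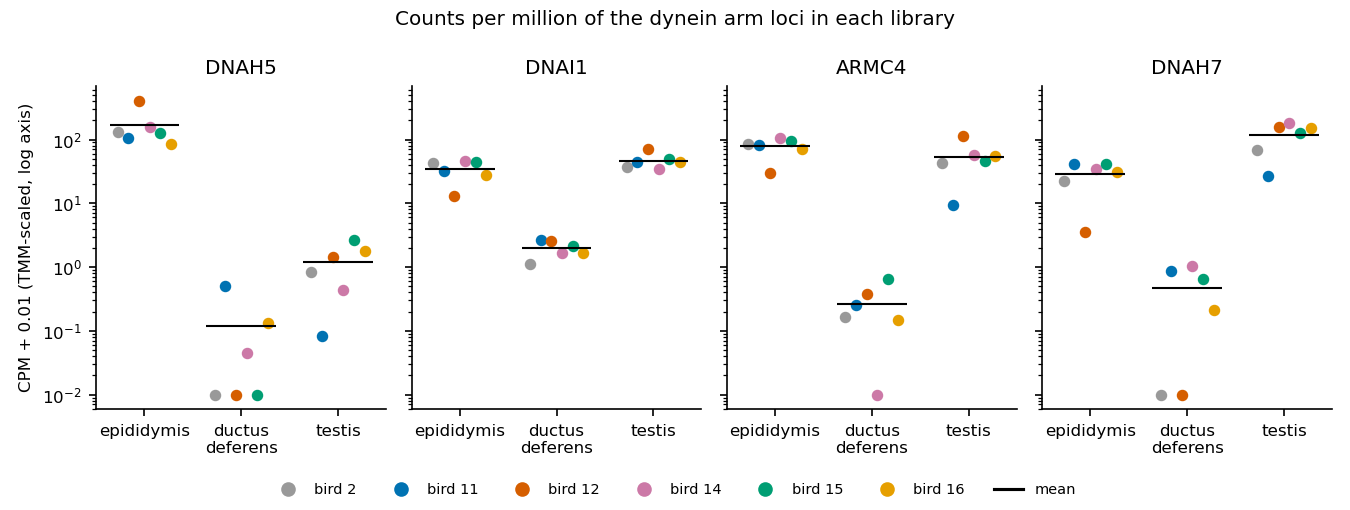
CPM of the 4 loci in each library, on a log axis after adding 0.01 CPM so that libraries without a count can be drawn at the bottom. Points are birds, lines are means over 6 libraries. DNAH5 stands at 86.6 to 407 CPM in the epididymis and at or below 2.61 CPM in both other tissues. DNAI1, ARMC4 and DNAH7 are lowest in the ductus deferens, and the DNAH7 mean is lower in the epididymis (29.1 CPM) than in the testis (118.8 CPM).

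In the “epididymis/testis” comparison 2 of the 4 loci passed the threshold (adjusted p below 0.01 and a log2 fold change beyond 1), DNAH5 upward and DNAH7 downward. Over all genes, 35.9% of those tested passed, 12.9% upward and 23% downward, so the number of loci called was near the background. DNAH5 averaged 169 ± 118.8 CPM in the epididymis and 1.19 ± 0.937 CPM in the testis (SD, n = 6 each), with a log2 fold change of 7.09 (SE 0.83, adjusted p = 1.81e-05, edgeR quasi-likelihood test). It was higher in the epididymis in 6 of 6 birds. Without the epididymis of bird 12 its epididymal mean was 122 ± 27.0 CPM (SD, n = 5) and the log2 fold change 6.57 (adjusted p = 8.19e-06 with edgeR).

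DNAH7 averaged 29.1 ± 14.4 CPM in the epididymis and 118.8 ± 59.3 CPM in the testis (SD, n = 6 each), and its log2 fold change was -2.11 (SE 0.55, adjusted p = 0.00510 with edgeR). It was lower in the epididymis in 5 of 6 birds, bird 11 being the exception. The call was lost in the fit that blocked on the bird (adjusted p = 0.0365) or with all 3 tissues in the same fit (0.0257), nor without bird 2 (0.0161), bird 14 (0.0191) or bird 16 (0.0200), all with edgeR. Without the epididymis of bird 12 the log2 fold change was -1.90 (adjusted p = 0.00201 with edgeR) and without bird 11 it was -2.52 (adjusted p = 0.00180 with edgeR).

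DNAI1 and ARMC4 did not pass in “epididymis/testis”. DNAI1 averaged 34.5 ± 12.8 CPM in the epididymis and 46.4 ± 12.7 CPM in the testis (SD, n = 6 each), with a log2 fold change of -0.51 (SE 0.34, adjusted p = 0.225 with edgeR). ARMC4 averaged 78.2 ± 26.4 CPM in the epididymis and 53.8 ± 33.9 CPM in the testis (SD, n = 6 each), with a log2 fold change of 0.43 (SE 0.48, adjusted p = 0.477 with edgeR). These estimates moved with the scaling of the libraries. The median log2 fold change of all genes tested was -0.30 with TMM factors and -0.67 with DESeq2's size factors, and with the size factors DNAI1 stood at -0.89 and ARMC4 at 0.06. A difference below the call threshold therefore cannot be read from these 2 loci in either direction.

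Within single birds, the log2 ratio of epididymis over testis (CPM + 0.5) showed how far the birds differed. For DNAH5 it lay between 5.27 in bird 16 and 7.71 in bird 12. For DNAI1 it lay between -2.37 in bird 12 and 0.41 in bird 14. For ARMC4 it was -1.91 in bird 12, 3.04 in bird 11 and between 0.37 and 1.06 in the other 4 birds. For DNAH7 it was -5.31 in bird 12, 0.63 in bird 11 and between -2.38 and -1.59 in the others. Birds 11 and 12 thus held both extremes for ARMC4 and DNAH7.

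In the “ductus deferens/testis” comparison 3 of the 4 loci were called, all lower in the ductus deferens, where 45.3% of all genes tested were called and 30.4% were called lower. DNAH7 had a log2 fold change of -8.09 (SE 1.09, adjusted p = 3.02e-05), ARMC4 one of -7.80 (SE 0.93, adjusted p = 1.17e-05) and DNAI1 one of -4.63 (SE 0.36, adjusted p = 3.28e-07), all with edgeR. For these 3 loci every ductus deferens lay below every testis, as for 29.5% of all genes tested, and 14.8% lay wholly above. DNAI1 averaged 1.96 ± 0.600 CPM in the ductus deferens and 46.4 ± 12.7 CPM in the testis (SD, n = 6 each). The fold changes of DNAH7 and ARMC4 rest on 230 and 129 counts over the 6 ductus deferens libraries.

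DNAH5, low in both of these tissues, was not called in “ductus deferens/testis” (log2 fold change -3.48, SE 1.32, adjusted p = 0.0349 with edgeR). It averaged 0.108 ± 0.194 CPM in the ductus deferens and 1.19 ± 0.937 CPM in the testis (SD, n = 6 each), and it was lower in the ductus deferens in 5 of 6 birds. Bird 11, the exception, held both the highest ductus deferens and the lowest testis. Without bird 11 the log2 fold change was -5.43 (adjusted p = 0.00278 with edgeR). DNAH5 also passed with DESeq2 (-3.68, adjusted p = 0.00471) and with all 3 tissues in the same fit (-3.48, adjusted p = 0.00503 with edgeR).

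In the “epididymis/ductus deferens” comparison all 4 loci were called higher in the epididymis, where 5.34% of all genes tested were called and 4.22% were called higher. The log2 fold change was 10.61 for DNAH5 (SE 1.27, adjusted p = 0.000112), 8.14 for ARMC4 (SE 0.82, adjusted p = 2.91e-05), 5.87 for DNAH7 (SE 1.10, adjusted p = 0.00329) and 4.04 for DNAI1 (SE 0.36, adjusted p = 1.12e-05), all with edgeR. Each locus was higher in 6 of 6 birds with no overlap between the tissues. Of all genes tested, 6.01% lay wholly higher and 1.55% wholly lower in the epididymis. All 4 calls were kept with the bird as a block and without the epididymis of bird 12. DNAH7 missed the threshold without bird 11, 14, 15 or 16, with adjusted p-values of 0.0140, 0.0147, 0.0216 and 0.0223 (edgeR).

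Because a ratio of 2 loci within a library does not depend on how libraries are scaled, the 6 pairs of loci were compared between tissues as log2 ratios of counts. Counts are not per length here, so only the difference of a ratio between tissues is read, never the ratio itself as a relative level. Of the 18 tests (6 pairs in 3 comparisons), 13 passed an adjusted p of 0.05 by two-sided exact permutation tests, for which 0.00216 is the smallest p that 6 against 6 libraries allow. In “epididymis/testis” all 6 pairs passed. The pairs share loci, so these tests are not independent of each other. The loci were named in the study's tables of genes that differed between these same libraries, so unequal changes are partly built in. Pairs of other genes were not tested, so the share of arbitrary pairs that would pass is not known.

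DNAH5 rose against each partner in the epididymis. Its ratio to DNAI1 was 2.83 to 3.44 in 5 epididymides and 30.8 in bird 12, against 0.00183 to 0.0529 in the 6 testes. On the log2 scale this is a difference of 8.09 between means of 2.20 ± 1.35 in the epididymis and -5.90 ± 1.73 in the testis (SD, n = 6 each; exact permutation p = 0.00216, adjusted 0.00487). The difference was 6.84 for DNAH5 to ARMC4 and 9.72 for DNAH5 to DNAH7, with the same exact p. None of these 3 ratios overlapped between the epididymis and the testis.

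The other 3 loci also changed unequally between the epididymis and the testis. ARMC4 to DNAH7 was 1.98 to 8.50 in the epididymis and 0.310 to 0.720 in the testis, a log2 difference of 2.88 (exact permutation p = 0.00216, adjusted 0.00487). DNAI1 to ARMC4 was 0.391 to 0.503 in the epididymis and 0.616 to 4.62 in the testis, a log2 difference of -1.26 (exact permutation p = 0.00216, adjusted 0.00487) that was -0.80 without bird 11. DNAI1 to DNAH7 overlapped between these tissues and had a log2 difference of 1.62 (exact permutation p = 0.0173, adjusted 0.0240), which did not pass without bird 2, 12, 14, 15 or 16 (adjusted exact p = 0.0595 to 0.0769). Nor did it pass without the epididymis of bird 12 alone (1.34, adjusted exact p = 0.0509), an alternative chosen after seeing the data. By mean log2 ratio, in the order DNAH5, ARMC4, DNAI1, DNAH7 each locus was higher in the epididymis relative to the next. The last step, DNAI1 to DNAH7, was not stable, and in bird 11 this ratio was lower in the epididymis (0.773) than in the testis (1.66).

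With libraries paired by bird, the exact sign-flip test over 6 birds cannot give a p below 0.0312, and none of the 18 ratio tests passed after adjustment, the lowest adjusted exact p being 0.0511. The ratios in the ductus deferens rest on few counts. DNAI1 to ARMC4 there was 3.32 to 11.7 in 5 birds and 287 in bird 14, which had no ARMC4 count.

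How far a ratio varied over the epididymides depended on bird 12. The log2 SD of DNAI1 to ARMC4 over the 6 birds was 0.137, against 0.772 to 2.10 for the other 5 pairs. Without bird 12, an alternative chosen after seeing the data, it was 0.153, and the SDs were 0.116 for DNAH5 to DNAI1, 0.144 for DNAH5 to ARMC4 and 0.376 to 0.509 for the 3 pairs with DNAH7. In bird 12 the DNAI1 to ARMC4 ratio of 0.443 lay within the range of the other birds, although both loci were low. In the testis the SD of this pair was 1.09 over 6 birds and 0.345 without bird 11, with 0.616 to 1.08 in 5 birds and 4.62 in bird 11.

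**Figure D2:**
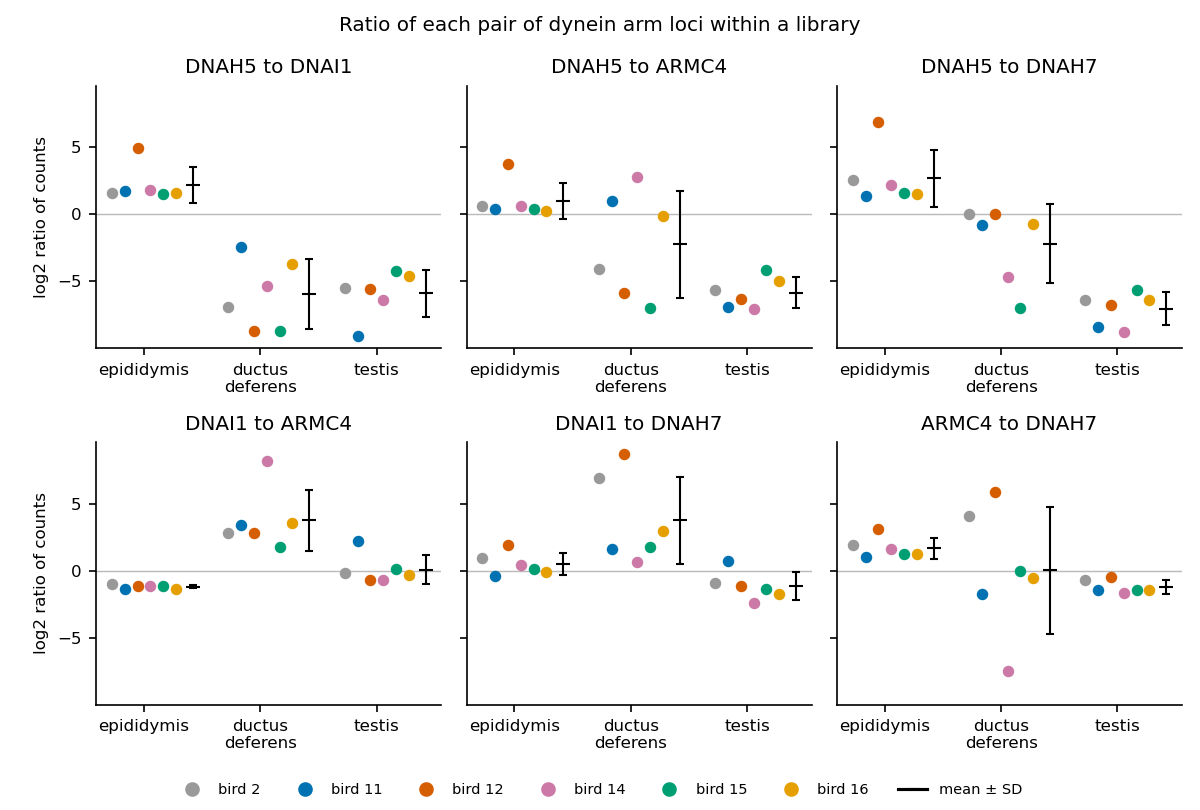
Log2 ratio of counts for each pair of loci within a library (0.5 added to each count). Points are birds, and bars give mean ± SD over 6 libraries. The 3 DNAH5 ratios of the epididymis lie above those of every testis, with bird 12 highest, and DNAI1 to ARMC4 is narrow in the epididymis (0.391 to 0.503 before taking logs).

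In the epididymis of bird 12, DNAH5 was at 323% of the median of the other birds, whereas DNAI1 was at 30.3%, ARMC4 at 34.5% and DNAH7 at 10.1%. The first was the highest of the 6 epididymides and the other 3 the lowest. The DNAH5 value is summed over the transcripts of the locus. Its annotated transcript ENSMGAT00000006672 alone had 1019 counts there, the fewest of the 6 epididymides, against 7326 to 12625 counts in the others. Over all 28489 genes tested, this library was the lowest for 48.3% and the highest for 14.9%, and genes with a median of at least 1 CPM in the other birds stood at a median of 42.5% of it. Among the other 15 listed axoneme genes, 10 were lowest there and 2 highest, between 22.0% for CFAP69 and 226% for RSPH9. In the same library the summed ciliated cell markers (RFX2, CCNO, CDHR3) reached 106 CPM, within the range of the other birds, but they did not move together. CCNO was 72.04 CPM, the highest epididymis, against 25.4 to 65.4 CPM in the others, CDHR3 was 3.04 CPM, the lowest, against 20.2 to 45.8 CPM, and RFX2 lay between. The part of any of these in the DNAH5 value was not tested.

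In the testis of bird 11, DNAH5 was at 5.04%, ARMC4 at 17.2% and DNAH7 at 17.6% of the median of the other testes, the lowest of the 6 for each, and DNAI1 was at 100.3%. This library was the lowest for 27.4% of genes tested and the highest for 34.3%. Of the 15 listed axoneme genes 4 were lowest there and 8 highest, between 15.9% for the dynein assembly factor LRRC6 and 316% for the tektin TEKT2. Its summed germ cell markers were the highest of the testes (876 CPM, against 488 to 685 CPM in the others), with HORMAD1 at 203% and PCSK4 at 352% of the median of the other testes. In contrast, KIF18A (20.8%), NDC80 (24.7%) and MEIOC (36.8%) were the lowest of the testes there, and SLC26A8 was at 102%. Their part in the low dynein arm values was not tested.

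**Figure D3:**
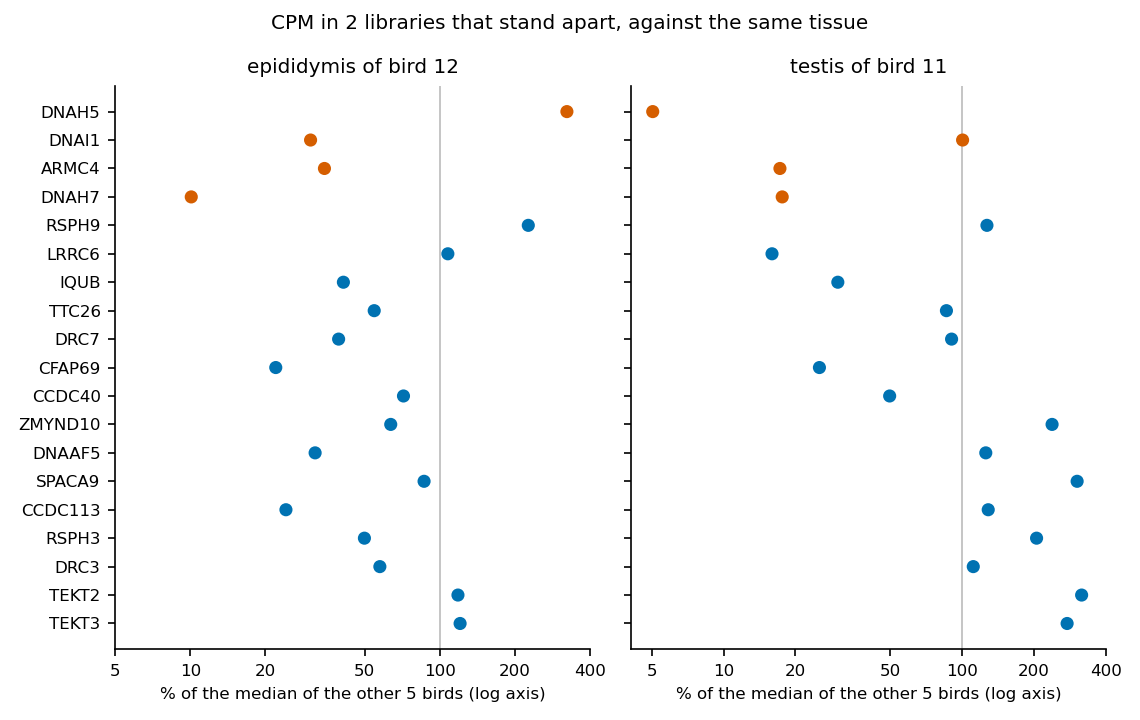
CPM of the 4 dynein arm genes (orange) and 15 other axoneme genes (blue) in the epididymis of bird 12 and the testis of bird 11, as a percentage of the median of the other 5 birds of that tissue on a log axis. In the epididymis of bird 12 DNAH5 lies at 323% and DNAH7 at 10.1%. In the testis of bird 11 DNAI1 lies at 100.3% and the other 3 loci between 5.04% and 17.6%.

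Counts were spread unevenly over the 22 transcripts, and 16 of them held at least 5% of their locus in at least 1 tissue. For DNAH5, the annotated transcript ENSMGAT00000006672 took 82.5 to 100% of the locus in 5 epididymides. In bird 12 it took 5.64% (Wilson 95% interval 5.32 to 5.99%), and the assembled transcript MSTRG.31009.3 took 94.4% (94.0 to 94.7%), or 17035 of 18054 counts. In the other 5 epididymides MSTRG.31009.3 had 0 to 2603 counts. ENSMGAT00000006672 had fewer counts in bird 12 (1019) than in any of these 5 epididymides (7326 to 12625). The high DNAH5 value of bird 12 therefore lay on a transcript that was minor in the other 5 epididymides. In the ductus deferens of bird 11 this transcript held 29 of the 34 counts.

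In the testis, ENSMGAT00000006672 held at least 97.3% of the DNAH5 counts in 5 birds and 35.4% in bird 2, where 51 of 79 counts lay on MSTRG.31009.3. The testis of bird 11 had only 5 counts on the locus. ENSMGAT00000006672 was the only one of the 15 transcripts tested that was called in “epididymis/testis” (log2 fold change 6.08, SE 0.90, adjusted p = 0.000546 with edgeR), where 15.6% of all transcripts tested were called, 3.49% higher and 12.1% lower. It was not called in the fit that blocked on the bird (adjusted p = 0.0135, edgeR). Before adjustment, 5 of the 15 had p below 0.05.

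For DNAI1, the annotated transcript ENSMGAT00000002211 was the main form in all 3 tissues, with 70.1% of the counts in the epididymis, 100% in the ductus deferens and 76.6% in the testis. It took all 943 ductus deferens counts, which allows the other 4 transcripts a share of up to 0.318% each. Single libraries broke this pattern. MSTRG.51736.2 held 77.6% of the locus in the epididymis of bird 15 and had no count in any other library, and MSTRG.51736.3 held 56.6% in the testis of bird 14 and at most 0.376% elsewhere. ENSMGAT00000019315 held 22.0 to 27.5% in the epididymis of birds 2 and 14 and none in the other 4.

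For ARMC4, 3 assembled transcripts held most of the counts. MSTRG.41022.1 held 13.3 to 90.2% in the epididymis and 28.5 to 95.04% in the testis. MSTRG.41022.5 held 31.6 ± 19.2% in the epididymis and 7.38 ± 8.21% in the testis (SD, n = 6 each), but this difference did not pass after adjustment (exact permutation p = 0.0260, adjusted 0.156). MSTRG.41022.2 ranged from none to 50.5% in the epididymis and from 0.994 to 64.4% in the testis. In birds 12, 15 and 16 the epididymis had 0, 1 and 9 counts of this form, although MSTRG.41022.1 had 1191 to 8078 counts there.

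DNAH7 had 8 transcripts, of which 6 passed the 5% rule. MSTRG.43174.4 had the most counts over the 6 epididymides (34.2 to 64.7% of the locus) and held 2.04 to 41.7% in the testis (exact permutation p = 0.0108, adjusted 0.130). MSTRG.43174.6 held 9.41 ± 5.51% in the epididymis and 27.5 ± 17.4% in the testis (SD, n = 6 each; exact permutation p = 0.0216, adjusted 0.156). MSTRG.43174.8 held 0 to 2.46% in the epididymis and 2.89 to 49.4% in the testis, and this was the only share that passed in “epididymis/testis” (exact permutation p = 0.00216, adjusted 0.0390 over 36 tests). It did not pass with any other setting run, such as a minimum of 100 counts (adjusted exact permutation p = 0.0519) or pairing by bird (adjusted exact sign-flip p = 0.529). The sign-flip test over 6 birds cannot give a p below 0.0312, and leaving out a whole bird also raises the smallest possible p. After adjustment these settings could hardly pass, so they do not decide whether the difference holds.

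The share of ENSMGAT00000002211 within DNAI1 was the only share that passed in “ductus deferens/testis”, with 100% in 6 of 6 ductus deferens libraries and 42.6 to 99.2% in the testes (exact permutation p = 0.00216, adjusted 0.0390). It too was lost in every other setting run, with the same limits on the smallest possible p. No share passed in “epididymis/ductus deferens”, where 1 of 10 tests had an exact permutation p below 0.05 before adjustment. At the transcript level, 9 of the 10 tested were called lower in “ductus deferens/testis” (25.2% of all transcripts called, 6.31% higher and 18.8% lower), and 2 were called in the blocked fit. MSTRG.43174.2, MSTRG.43174.8, MSTRG.51736.4 and MSTRG.41022.2 had no ductus deferens count. They passed the filter on low counts only through the testis and could only come out lower. The number called lower is therefore partly set by the filter. In “epididymis/ductus deferens” 3 of 8 were called higher (1.01% of all transcripts called, 0.91% higher and 0.0979% lower). Most of these 8 passed the filter through the epididymis, so their direction is partly set by the filter too. In the blocked edgeR fit 0 of the 8 were called, and all 8 had an unadjusted p below 0.05 without the block. The shares of all transcripts called in the blocked fits are not given. The blocked counts are therefore not read as particular to these loci.

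**Figure D4:**
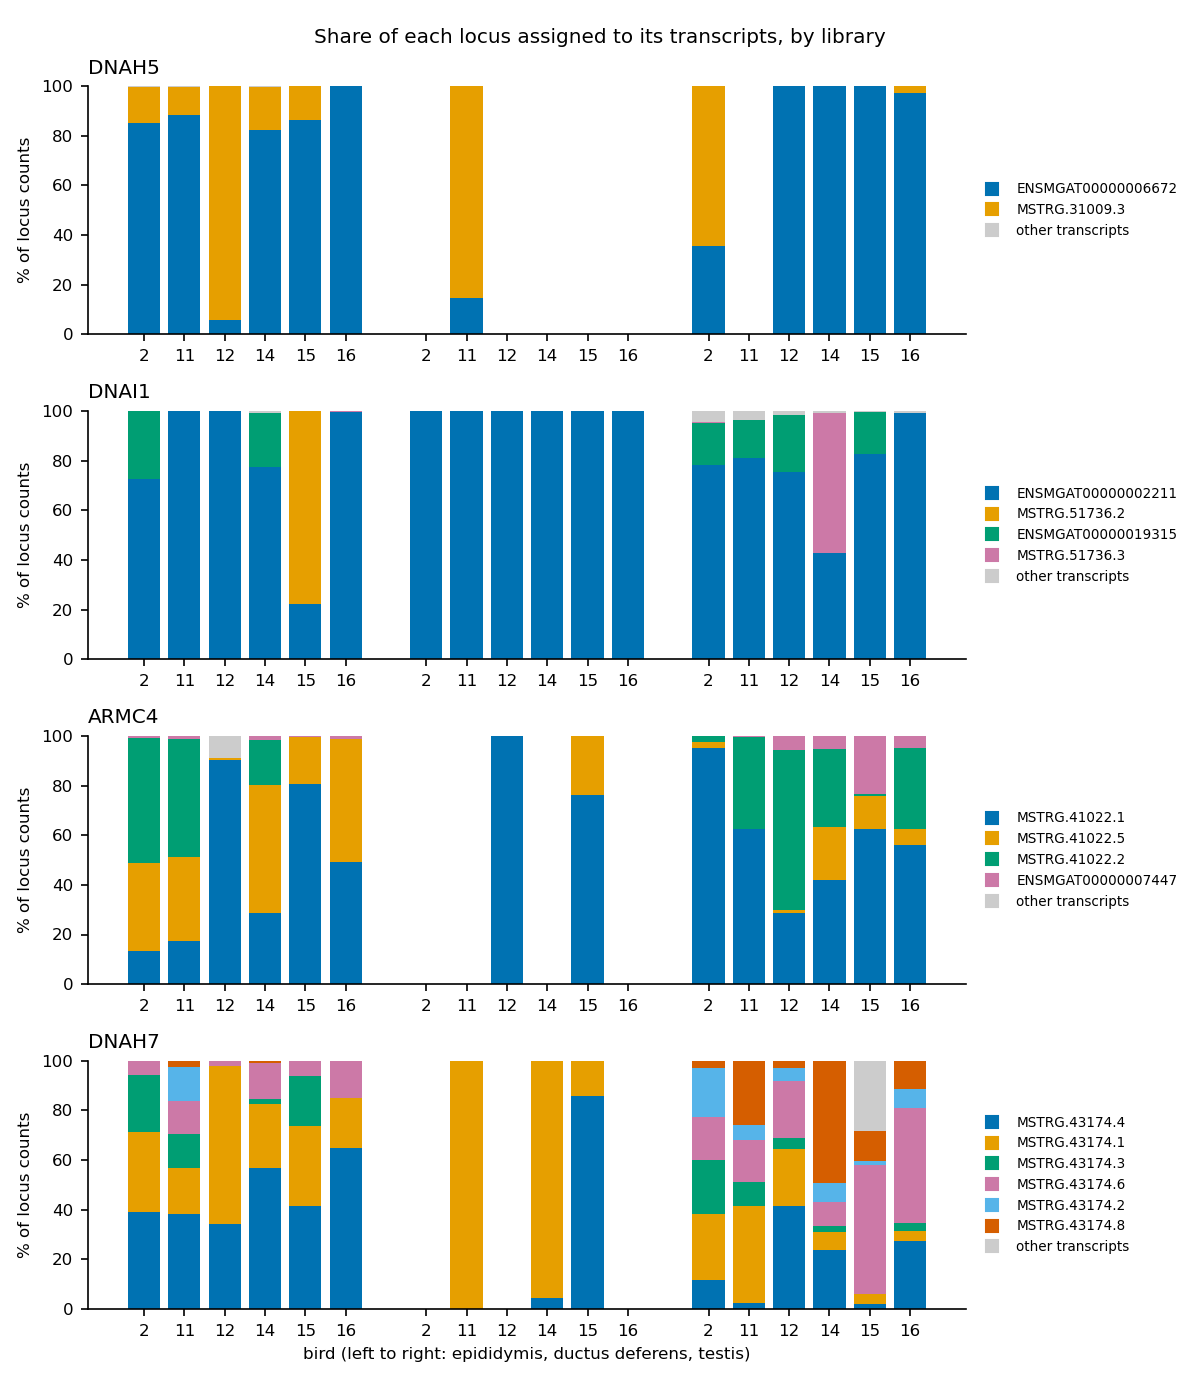
Share of each locus assigned to its transcripts in each library, as a percentage of the locus counts, with libraries under 20 counts left blank. The epididymis of bird 12 is the only epididymis in which MSTRG.31009.3 carries most of DNAH5 (94.4%), and DNAI1 lies wholly on ENSMGAT00000002211 in the ductus deferens.

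Of 79 listed symbols of dynein arm, assembly, axoneme and cytoplasmic dynein genes, 19 could be matched to a row, the 4 loci included. None of the 8 cytoplasmic dynein symbols, listed for comparison, was matched. No other dynein chain was among them. The names come from the study's own tables, so the counts below cannot be set against the background as if the genes had been drawn without regard to their change.

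Among 5 genes for the assembly and transport of dynein arms, all were called lower in “ductus deferens/testis” and 4 were called higher in “epididymis/ductus deferens”. LRRC6, a cytoplasmic assembly factor, averaged 99.4 ± 11.8 CPM in the epididymis, 0.396 ± 0.359 CPM in the ductus deferens and 68.0 ± 51.4 CPM in the testis (SD, n = 6 each). DNAAF5, another assembly factor, averaged 22.0 ± 7.21 CPM in the epididymis and 13.1 ± 1.21 CPM in the ductus deferens and was not called between them (log2 fold change 0.64, adjusted p = 0.151 with edgeR). In “epididymis/testis” DNAAF5, ZMYND10 and CCDC40 were called lower, with log2 fold changes of -1.63, -1.29 and -1.13, whereas LRRC6 (0.42) and the intraflagellar transport protein TTC26 (0.21) did not pass. ZMYND10 (adjusted p = 0.0111) and CCDC40 (0.0283) were not called in the blocked edgeR fit. The median of the 5 was -1.13, which is not set against all genes tested because the study's tables supplied the names.

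Among 10 genes of the dynein regulatory complex, the radial spokes and other axoneme parts, all were called lower in “ductus deferens/testis” and 9 were called higher in “epididymis/ductus deferens”. In “epididymis/testis” 6 were called lower and 1 higher. The tektins TEKT3 (log2 fold change -5.55) and TEKT2 (-3.19) fell most, and the radial spoke protein RSPH9 was the gene called higher (1.32, SE 0.33, adjusted p = 0.00423 with edgeR). RSPH9 was highest in the epididymis of bird 12 (183 CPM). Its log2 fold change was 1.01 without that library (adjusted p = 0.00569 with edgeR), close to the threshold of 1. IQUB stood at 0.26 and did not pass. In “epididymis/ductus deferens” DRC7 (8.11) and IQUB (5.86) had the largest values, RSPH3 (2.46) and CFAP69 (3.24) the smallest, and TEKT3 was not called (3.39, adjusted p = 0.0107 with edgeR). Without the epididymis of bird 12 TEKT3 was called (3.24, adjusted p = 0.00701 with edgeR). The median of the 10 in “epididymis/testis” was -1.74, also not set against all genes tested, because the study's tables supplied these names as well.

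None of the 15 reached the log2 fold change of DNAH5 in “epididymis/testis” (7.09), and DNAH7 (-2.11) lay among them. This is a description, since the difference between DNAH5 and these 15 was not tested. Over the 15, 9 were called lower and 1 higher in “epididymis/testis”, and 8 in all were called in the blocked fit. In “ductus deferens/testis” 15 were called lower, and in “epididymis/ductus deferens” 13 were called higher (12 called with the block).

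**Figure D5:**
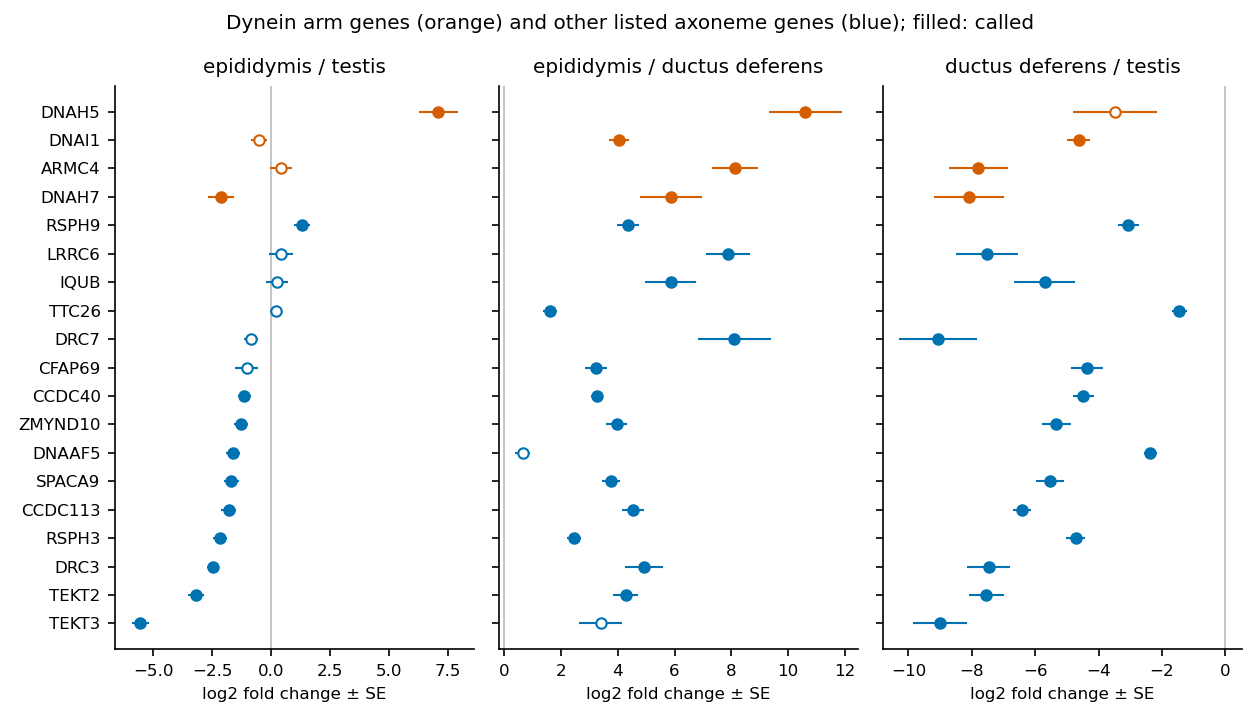
Log2 fold change ± SE from edgeR for the 4 dynein arm genes (orange) and 15 other axoneme genes (blue) in the 3 comparisons. Filled points passed an adjusted p of 0.01 and a log2 fold change beyond 1. DNAH5 lies far to the right in “epididymis/testis” (7.09), while all 19 genes lie left of 0 in “ductus deferens/testis”.

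Rows with a pattern like each locus were ranked by Pearson's r of log2(CPM + 0.5) over the 18 libraries among 21150 rows tested in all comparisons, 81 of them with a symbol besides the locus itself. These correlations describe tissue patterns, since the points share 3 tissues and 6 birds. The symbols come from the study's tables of genes that differed between these tissues, so a high r with a named row is partly built in. Rows with r above 0.95 numbered 18 for DNAH5, 57 for DNAI1, 47 for ARMC4 and 35 for DNAH7. For DNAH5 the closest named rows were TMEM27 (r = 0.97), a membrane glycoprotein, the endocytic receptor LRP2 (0.95) and the phospholipase PLA2G12B (0.94), and the closest row of any kind was MSTRG.52866 (0.98). For DNAI1 they were DRC7 (0.99) and CCDC113 (0.97), both axoneme genes, and CCDC40 (0.96). For ARMC4 they were LRRC6 (0.98), IQUB (0.98) and DRC7 (0.96).

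For DNAH7 the closest named rows were the kinetochore gene NDC80 (0.98), the centriole duplication kinase PLK4 (0.97) and CCDC40 (0.97). The closest rows of any kind were MSTRG.10790 (0.98) after DRC7 for DNAI1, MSTRG.15680 (0.99) for ARMC4 and MSTRG.15423 (0.98) for DNAH7. Among the loci themselves, DNAI1 and ARMC4 had r = 0.96, DNAI1 and DNAH7 0.95 and ARMC4 and DNAH7 0.90. DNAH5 had r = 0.68 with ARMC4, 0.51 with DNAI1 and 0.34 with DNAH7.

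Markers of the cells that could carry these genes also differed between the tissues. The summed level of 3 matched ciliated cell markers of 10 listed (RFX2, a ciliary transcription factor, CCNO, needed for making many centrioles, and CDHR3) was 92.8 to 182 CPM in the epididymis, 7.71 to 21.8 CPM in the ductus deferens and 32.3 to 77.4 CPM in the testis. CCNO averaged 46.0 ± 18.7 CPM in the epididymis and 0.619 ± 0.431 CPM in the testis, and CDHR3 32.0 ± 17.0 and 2.80 ± 0.941 CPM (SD, n = 6 each). RFX2 made up most of the testis sum, with 58.1 ± 24.4 CPM in the epididymis and 41.8 ± 16.5 CPM in the testis (SD, n = 6 each). It was not called between these 2 tissues (log2 fold change 0.43, adjusted p = 0.281 with edgeR). The testis sum, mostly RFX2, is therefore not read as a level of ciliated cells. The 6 matched germ cell markers of 14 listed summed to 24.4 to 51.9 CPM in the epididymis, 4.37 to 13.1 CPM in the ductus deferens and 488 to 876 CPM in the testis, led by the meiotic gene HORMAD1 (371 ± 140 CPM in the testis). MEIOC, a meiotic factor, was under 0.1 CPM in all 6 ductus deferens libraries.

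The 6 matched markers of absorptive epididymal epithelium of 7 listed summed to 456 to 1297 CPM in the epididymis, 82.2 to 162 CPM in the ductus deferens and 19.97 to 39.6 CPM in the testis. LRP2 averaged 418 ± 100.1 CPM in the epididymis, 1.83 ± 1.69 CPM in the ductus deferens and 8.99 ± 5.82 CPM in the testis (SD, n = 6 each). SLC34A2, a phosphate transporter, made up most of the ductus deferens sum and went the other way, with 21.6 ± 17.5 CPM in the epididymis and 93.4 ± 28.6 CPM in the ductus deferens (SD, n = 6 each), lower in the epididymis in 6 of 6 birds but not called (log2 fold change -2.18, adjusted p = 0.0139 with edgeR). It was called without the epididymis of bird 12 (adjusted p = 0.000525) and in the blocked fit (0.00338), both with edgeR. Whether the makeup of cells sets the differences of the 4 loci was not tested. Markers of Sertoli, Leydig and smooth muscle cells were not analysed here.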

How the data were processed

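Per the labels, polyA RNA of 18 tissue samples was made into stranded libraries, and the submitters' processing notes name bcl2fastq, Trimmomatic, STAR and StringTie. Both tables that the authors deposited hold raw counts (whole numbers, not normalized), for genes and for transcripts. How reads were divided among overlapping transcripts, and whether strand was used in counting, is not given in the sources used here, so overlapping or antisense transcripts cannot be told apart. Gene symbols came from the study's supplementary tables, which named 83 rows, the 4 members included. No genome of the authors' build was used, so no coordinates or sequences are given. Transcripts were tied to loci by their identifiers or by the same tables, except ENSMGAT00000019315 and ENSMGAT00000007447, which were assigned because they equal the rest of the locus counts in all 18 libraries.

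Each pair of tissues was fitted in 12 libraries with edgeR 4.0.16 (quasi-likelihood, robust, filterByExpr, TMM) in R 4.3.3, with Benjamini-Hochberg adjustment over all rows tested. Calls needed an adjusted p below 0.01 together with an absolute log2 fold change above 1. SE is the log2 fold change over the root of F. CPM are scaled by TMM over all libraries. Within-library ratios (0.5 added) and transcript shares (loci with at least 20 counts) were tested by exact permutation, two-sided, with adjustment over 18 and 36 tests at 0.05. Intervals and floors (3 counts) cover counting error only. Libraries with the same number come from the same bird. Over 19131 genes the deviations of same-bird libraries correlated on average at 0.0802 between epididymis and ductus deferens, 0.0160 between epididymis and testis and 0.00260 for the remaining pair. The main fits did not block on the bird. The block was run as an alternative because the animals were shared. Blocked fits are given where they change a call. Unblocked edgeR and permutation p-values measure the spread between the birds within each tissue and treat the 12 libraries as independent. Blocked fits and sign-flip tests use the differences within the 6 birds. Alternatives were DESeq2 1.42.0, its size factors, library size alone, no filter, a fit of all 3 tissues together, limma 3.58.1 with 1 added to CPM before log2, 1 or 5 added to counts in ratios, a minimum of 100 counts for shares, the bird as a block, and libraries left out. Methods were tested on simulated data. Named genes were the 4 loci, their transcripts at 5% or more, the extremes of each list and the closest rows. The members and lists were chosen with earlier results of these data known.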

Additional observations from a re-analysis of the deposited data

Results flagged for a closer look

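Single libraries were compared with the other 5 of their tissue by Dixon's test for the 4 dynein arm genes and 15 other axoneme genes (57 groups) and for the 6 pair ratios (18 groups). A gap was found in 10 of the 57 and 5 of the 18. The cutoff flags about 1 group in 20 only for independent groups of normally distributed values. CPM were tested without taking logs, and the groups share libraries and loci. These numbers are therefore not set against chance.

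The epididymis of bird 12 was set apart by its high DNAH5 (407 CPM) and low DNAAF5 (8.02 CPM), and by its high log2 ratios of DNAH5 to DNAI1 (4.95), to ARMC4 (3.77) and to DNAH7 (6.86). All DNAH5 flags of this library rest on the same locus counts, of which 94.4% lay on MSTRG.31009.3. The testis of bird 11 was set apart by high ZMYND10 (407 CPM), RSPH3 (340 CPM), TEKT2 (604 CPM) and TEKT3 (675 CPM), and by its high log2 ratio of DNAI1 to ARMC4 (2.21). The testis of bird 12 had high IQUB (151 CPM). In the ductus deferens the high values were those of DNAH5 in bird 11 (0.492 CPM), DRC7 in bird 15 (0.606 CPM), TEKT3 in bird 15 (2.08 CPM) and the log2 ratio of DNAI1 to ARMC4 in bird 14 (8.16), all from few counts. What sets these libraries apart was not tested.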

How the results depend on the processing

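None of the 4 loci changed direction in any comparison and setting run, and 152 of 164 gene-level values stayed on their side of the threshold. In epididymis/testis, 1 of the 4 loci was called in the blocked fit or in the fit of all 3 tissues, and 1 to 2 without single birds. The block changed no other call of the 4 loci at the gene level. For epididymis/ductus deferens 3 to 4 were called without single birds. The count of all genes called in epididymis/testis was 6262 with the block, and 7921 to 12607 without single birds. In epididymis/ductus deferens it was 626 with the block, 2227 with DESeq2, 2463 without the epididymis of bird 12 and 669 to 2370 without single birds. Called transcripts of the loci numbered 0 with the block and 2 without the epididymis of bird 12 in epididymis/testis (1 to 2 without single birds), 2 with the block in ductus deferens/testis. Those of epididymis/ductus deferens numbered 0 with the block, 1 with no filter, 5 without the epididymis of bird 12 and 0 to 5 without single birds. The numbers of all transcripts called in these settings are not given. With the bird as a block 0 ratios passed in each comparison. Without single birds 5 to 6 passed in epididymis/testis. For shares, 0 passed in either comparison with the testis at a minimum of 100 counts, with the block, and without any single bird, and 0 in epididymis/testis without the epididymis of bird 12. Pairing by bird, or leaving out a whole bird, raises the smallest p that these exact tests allow.

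Directions turned only in results that had not passed. The log2 difference of DNAH5 to DNAI1 in ductus deferens/testis (-0.05) was 0.46 with 1 added to counts and 1.68 with 5, and -1.40 to 0.83 without single birds. In epididymis/testis, without the epididymis of bird 12 the share differences in percentage points were -2.15 for MSTRG.31009.3, 1.90 for ENSMGAT00000006672 and -2.19 for ENSMGAT00000002211. Without single birds or the epididymis of bird 12 they ranged from -5.52 to 26.6 for MSTRG.31009.3 and -26.8 to 5.27 for ENSMGAT00000006672. The ranges were -4.41 to 14.6 for ENSMGAT00000002211, -25.8 to 2.88 for MSTRG.41022.1 and -20.1 to 2.39 for MSTRG.41022.2. For MSTRG.43174.3 the range was -0.45 to 4.96, and for MSTRG.51736.3 it was -11.3 to 0.038. The cause of these changes was not tested. Depth limits the ductus deferens, where the 4 loci held 48 to 943 counts over 6 libraries.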
